A study of Zea mays with 18 samples.

Results

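Large ATP-driven chaperones of the HSP101, HSP90 and HSP70 families were examined in the leaf transcriptome of the maize F1 hybrid An'nong 591 with and without heat. They are 8 genes of the 39471 in the deposited table, listed by gene ID: hsp101 (GRMZM2G360681), hsp82 (GRMZM5G833699), HSP90-2 (GRMZM2G012631), HSP90-1 (GRMZM2G024668), Hsp70 (GRMZM2G310431), hsp70-4 (GRMZM2G340251), GRMZM2G069651 and GRMZM2G366532. Their exonic lengths are 2550 to 3168 bases, and the names are RefSeq names. For GRMZM2G069651 and GRMZM2G366532 the RefSeq table gives only a clone name, so the family of each is known here only as one of those listed, and no role is given to either.

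HSP101 belongs to the Hsp100/Clp ATPases, ring-shaped machines that thread proteins out of aggregates, and Arabidopsis or maize plants that lack it do not acquire tolerance to otherwise lethal heat. HSP70 proteins bind exposed hydrophobic stretches of unfolded chains and release them in an ATP cycle, and they hand substrates to HSP101 and to HSP90. HSP90 proteins act late in folding on a set of client proteins that includes kinases and receptors, and plants carry both constitutive and heat-inducible members of the HSP70 and HSP90 families.

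Seedlings of the hybrid (CB25 as the mother and CM1 as the father) were grown with 16 h of light and 8 h of dark. The control group, CF1, stayed at 28 °C by day and 23 °C by night, and the heat group, F1, was kept at 42 °C and 35 °C for 2 d once the third leaf had expanded. Poly(A) RNA purified from total RNA of the third leaf was sequenced in 3 biological replicates per group, and the 6 libraries of the hybrid are used here. The comparison CF1 vs. F1 asks how each chaperone gene stood after heat in 1 genotype at 1 time, without recovery and without an earlier time point.

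Library totals ranged from 12266758 to 14643512 counts, and 24325 to 26718 genes were detected. The composition of the libraries differed between the groups: the 100 genes with the most counts held 36.6–39.3% of the counts in CF1 and 14.7–16.0% in F1, and the TMM factors, which scale libraries to a common middle of the gene distribution, were 0.734–0.770 in CF1 and 1.30–1.33 in F1. Of the fixed leaf markers, 4 were found by name. The C4 photosynthesis genes pep1 (5486–6519 FPKM in CF1 and 618–890 in F1) and ppdk1 (9489–10481 and 3583–4234) mark mesophyll, and ssu1 (1671–2063 and 197–230) and me3 (4421–4823 and 1907–2627) mark the bundle sheath. The seed storage gene gz16 and the pollen gene expb1 were listed at 0 in all 6 libraries. The leaf markers were lower in every F1 library, and their part in the chaperone results was not tested. In whole leaves, fewer cells of a type and less RNA per cell cannot be told apart.

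The 8 genes fell into a set that rose steeply and a set that was not called. Transcripts of hsp101, hsp82, GRMZM2G069651, GRMZM2G366532 and Hsp70 rose in F1 by 11.0-fold to 1375-fold. HSP90-2, HSP90-1 and hsp70-4, which were the 3 most abundant of the 8 in CF1, were not called in either direction, with log2 fold changes of 0.23, -0.49 and -0.73. A call needed a change of 2-fold or more together with an adjusted p no higher than 0.05 in edgeR's quasi-likelihood test over 20622 expressed genes. Of these, 24.1% were up-regulated and 19.9% down-regulated. All 8 chaperone genes were among the expressed genes, 6 of them with a mean of 1 FPKM or more in both groups. The other members, hsp82 and GRMZM2G366532, entered only through F1. The filter itself thus required a higher mean FPKM in F1, and their rise is not independent of it. Of the 6 expressed in both groups, 3 rose and none fell.

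**Figure D1:**
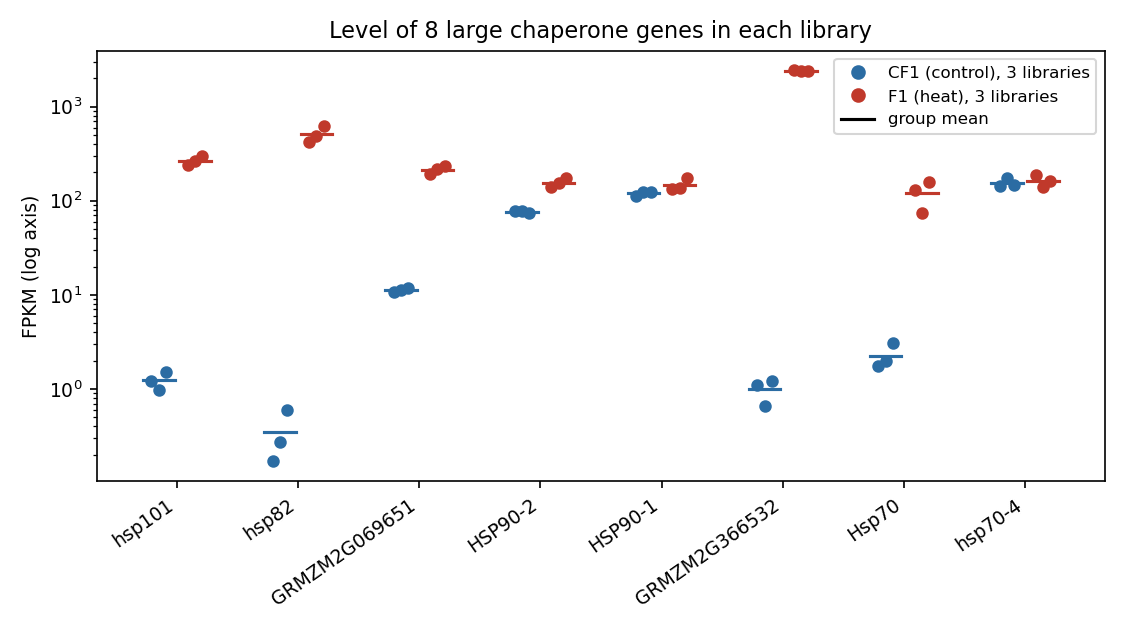
Deposited FPKM of the 8 chaperone genes in each library on a log axis, with CF1 (control) in blue, F1 (heat) in red and lines for group means over 3 libraries. The 5 called genes lie far apart in CF1 and F1, from 0.17 FPKM to 2433 FPKM at the extremes, while HSP90-2, HSP90-1 and hsp70-4 stay between 74.4 and 187 FPKM in all 6 libraries.

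The only Hsp100/Clp gene found by name was hsp101. Its counts were 55, 41 and 59 in CF1 replicates 1 to 3 and 11113, 12297 and 13410 in F1. Per length and library size these were 1.22, 0.98 and 1.52 FPKM in CF1 and 241, 265 and 295 FPKM in F1. Every F1 library lay far above every CF1 library, and the groups did not overlap. The log2 fold change was 6.96 (standard error 0.20), a 124-fold rise, with an adjusted p of 1.4e-08 in edgeR's quasi-likelihood test. By mean FPKM, hsp101 moved from rank 16614 among the 20622 expressed genes in CF1 to rank 201 in F1. Its log2 fold change was the 132nd highest, above that of 99.4% of the expressed genes.

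Among the named HSP90 genes, hsp82 was almost silent without heat. It had 7, 10 and 21 counts in CF1 against 17451, 20219 and 25205 in F1. The FPKM values were 0.17, 0.27 and 0.60 in CF1 and 421, 485 and 618 in F1. Replicate 3 was the highest library in both groups, and no F1 library came near the CF1 range. The rise was 858-fold, or 9.74 on the log2 scale (standard error 0.35), and the adjusted p was 2.744e-08 in edgeR's quasi-likelihood test. Leaving out single libraries gave 9.39 to 10.40, the highest without CF1 replicate 3. The mean level took hsp82 from rank 19270 to rank 76 among expressed genes.

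HSP90-2 and HSP90-1 were already abundant in CF1. HSP90-2 had 77.6, 77.2 and 74.4 FPKM in CF1 and 140, 155 and 173 FPKM in F1. HSP90-1 had 113, 123 and 122 FPKM in CF1 and 134, 137 and 174 FPKM in F1. As deposited, all F1 libraries were higher than all CF1 libraries for both genes, as they were for 64.3% of all expressed genes. After division by the TMM factors, HSP90-2 stood at 100.8, 100.2 and 101.4 in CF1 and at 105.4, 116.5 and 132.6 in F1. On the same scale HSP90-1 stood at 146.6, 160.2 and 166.8 in CF1 and at 101.1, 102.5 and 133.5 in F1. With this scaling the 3 F1 libraries of HSP90-2 were slightly above those of CF1 and the 3 of HSP90-1 were below.

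The log2 fold change of HSP90-2 was 0.23 (standard error 0.12) with an adjusted p of 0.0997 in edgeR's quasi-likelihood test. That of HSP90-1 was -0.49, with a standard error of 0.14 and an adjusted p of 0.00858, which passed the FDR threshold but not the fold change of 2. When libraries were scaled by their totals alone, the values were 1.03 for HSP90-2, which was then called up-regulated (adjusted p = 1.2e-05), and 0.31 for HSP90-1, in the opposite direction. The median log2 fold change of all expressed genes was 0.05 with TMM factors and 0.85 with library totals, so that HSP90-1 lay below the median gene and HSP90-2 above it under both scalings.

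**Figure D2:**
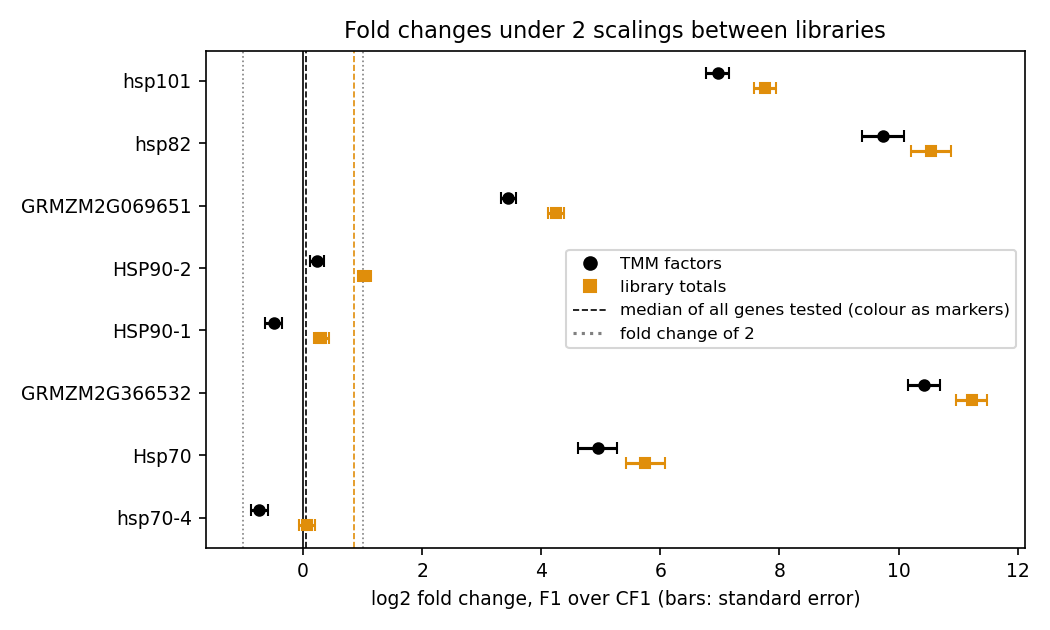
Log2 fold change of F1 over CF1 (x axis) for each of the 8 genes, with TMM factors in black and library totals in orange; bars are standard errors, dashed lines the median of all genes tested (0.05 and 0.85) and dotted lines a fold change of 2. The 5 called genes lie at 3.45 or more under both scalings, whereas HSP90-2, HSP90-1 and hsp70-4 lie between -0.73 and 1.03.

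The make-up of the named HSP90 transcripts was reversed between the groups. In CF1, HSP90-1 made up 60.9% ± 1.48 (SD, n = 3) of the summed FPKM of the 3 genes, HSP90-2 38.9% ± 1.57 and hsp82 0.176% ± 0.113. In F1, hsp82 made up 62.4% ± 1.74, HSP90-2 19.3% ± 1.25 and HSP90-1 18.3% ± 0.879. These shares need no scaling between libraries. The ratio of hsp82 to HSP90-1 within a library was 0.00151, 0.00219 and 0.00490 in CF1 and 3.14, 3.55 and 3.56 in F1. HSP90-2 stood at 0.687, 0.625 and 0.608 of the level of HSP90-1 in CF1 and at 1.04, 1.14 and 0.993 of it in F1, so the pair that was abundant in CF1 had overlapping levels in F1.

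GRMZM2G069651 was the one gene of the rising set that was well expressed without heat. It had 423, 416 and 400 counts in CF1 and 7831, 8857 and 9243 in F1, which are 10.7, 11.3 and 11.7 FPKM against 194, 218 and 232 FPKM. The libraries of each group lay close together and far from the other group. This is an 11.0-fold rise (3.45 ± 0.13 on the log2 scale, standard error, with an adjusted p of 2.968e-08 in edgeR's quasi-likelihood test). It was the smallest of the 5 rises and exceeded the change of 96.4% of expressed genes. Against HSP90-1 in the same library, its level was 0.0918–0.0958 in CF1 and 1.34–1.59 in F1.

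The named HSP70 genes of the set were Hsp70, which rose, and hsp70-4, which was not called. Hsp70 had 65, 67 and 97 counts in CF1 and 4854, 2825 and 5870 in F1. These are 1.77, 1.96 and 3.06 FPKM in CF1 and 129, 74.7 and 159 FPKM in F1. All F1 libraries were above all CF1 libraries, but the F1 libraries differed 2.18-fold among themselves after scaling, with replicate 2 the lowest. Their coefficient of variation of 36.3% was the widest of the 8 genes in F1. The rise was 30.8-fold, a log2 fold change of 4.95 with a standard error of 0.33 and an adjusted p of 6.177e-07 in edgeR's quasi-likelihood test, and it spanned 4.69–5.25 when single libraries were left out.

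For hsp70-4, the most abundant of the 8 genes in CF1, the FPKM was 142, 176 and 148 in CF1 and 187, 140 and 161 in F1. The groups overlapped as deposited. With TMM scaling the values were 185, 228 and 201 in CF1 and 141, 105 and 124 in F1, and every F1 library was below every CF1 library. In edgeR's quasi-likelihood test the estimate was -0.73 on the log2 scale, with a standard error of 0.14 and an adjusted p of 0.00105, short of the fold change of 2. With library totals it was 0.07 (adjusted p = 0.644). Both values lay about as far below the median gene of their own scaling, and 26.2% of expressed genes had a lower log2 fold change than hsp70-4. In the same library, Hsp70 stood at 0.0124, 0.0112 and 0.0207 of the level of hsp70-4 in CF1 and at 0.690, 0.533 and 0.984 of it in F1.

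GRMZM2G366532 reached the highest level of the 8 genes under heat. Its counts were 47, 26 and 44 in CF1 and 104915, 102636 and 100383 in F1, and its FPKM was 1.11, 0.66 and 1.21 in CF1 and 2433, 2367 and 2366 in F1. The F1 libraries differed little, with a coefficient of variation of 1.79% after scaling, the smallest of the 8. The 1375-fold rise (10.43 on the log2 scale with a standard error of 0.27, and an adjusted p of 1.4e-08 in edgeR's quasi-likelihood test) was the 16th highest of all expressed genes. By mean FPKM it moved from rank 17316 in CF1 to rank 7 in F1, and it was the only one of the 8 among the 100 genes with the most counts. The study picked this gene for its splicing out of genes it had already called between control and heat in each genotype, CF1 vs. F1 included. Those genes were also nonadditive under heat and annotated as responding to heat. The call of GRMZM2G366532 here is therefore not independent evidence.

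Counting over the scaled libraries, 6 of the 8 genes had all F1 libraries above all CF1 libraries, beside 39.1% of expressed genes, and 2 had all F1 libraries below, beside 36.1%. The latter were HSP90-1 and hsp70-4. Among the 6 were hsp82 and GRMZM2G366532, which entered the expressed genes only through F1, so the filter itself required a higher mean FPKM there. On deposited FPKM, 7 of the 8 were above, beside 64.3% of expressed genes, and hsp70-4 overlapped. The 7 again included hsp82 and GRMZM2G366532. Within groups, scaled CF1 values were highest in replicate 3 for 7 of the 8 genes, all except hsp70-4. Scaled F1 values were highest in replicate 3 for 6, all except GRMZM2G366532 and hsp70-4. The share over all expressed genes was not computed, so these counts are no result about the 8 genes. All 5 calls, and the absence of a call for the other 3 genes, held when any 1 library was left out.

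The order of the genes by level was rearranged. In CF1 it ran from hsp70-4 (155 ± 17.9 FPKM, mean ± SD, n = 3) through HSP90-1 (120 ± 5.84), HSP90-2 (76.4 ± 1.70), GRMZM2G069651 (11.2 ± 0.530), Hsp70 (2.26 ± 0.696), hsp101 (1.24 ± 0.271) and GRMZM2G366532 (0.993 ± 0.293) to hsp82 (0.347 ± 0.225). Of the 7 neighbouring pairs in that order, only hsp101 and GRMZM2G366532 had overlapping ranges. In F1 the order was GRMZM2G366532 (2389 ± 38.6), hsp82 (508 ± 100), hsp101 (267 ± 27.3), GRMZM2G069651 (214 ± 19.5), hsp70-4 (163 ± 23.6), HSP90-2 (156 ± 16.4), HSP90-1 (148 ± 22.2) and Hsp70 (121 ± 42.6). Neighbours among the last 4 of these had overlapping ranges over the 3 libraries. Compared within a library, Hsp70 was the lowest of these 4 in every F1 library, while the order of the others changed between libraries. The lowest gene in CF1, hsp82, was thus exceeded only by GRMZM2G366532 in F1, and the highest gene in CF1, hsp70-4, was in F1 below all but 1 of the genes that rose, the exception being Hsp70.

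The ratio of hsp82 to hsp101 also turned over, from 0.139, 0.276 and 0.395 in CF1 to 1.75, 1.83 and 2.09 in F1. That of GRMZM2G366532 to Hsp70 went from 0.627, 0.337 and 0.395 to 18.8, 31.7 and 14.9. In all, 8 such ratios were formed, chosen after the levels were seen, and they are given as descriptions without a test. The 3 CF1 libraries were separated from the 3 F1 libraries in each of the 8.

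**Figure D3:**
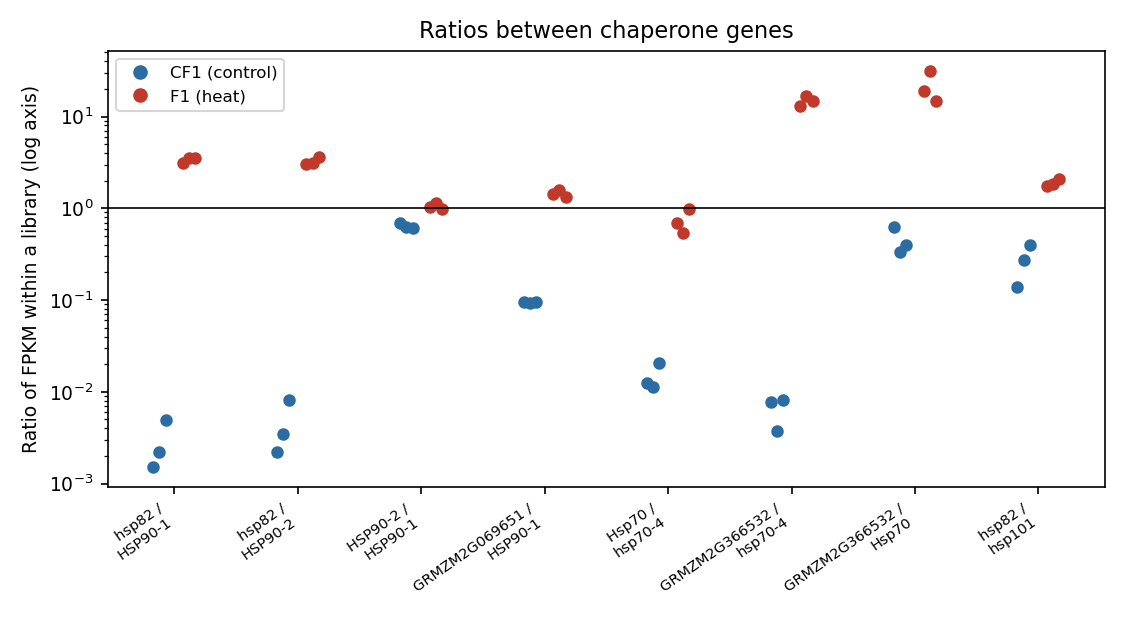
Ratio of FPKM between gene pairs within each library on a log axis, CF1 in blue and F1 in red, with a line at 1. The ratio of HSP90-2 to HSP90-1 shifts least, from 0.608–0.687 to 0.993–1.14, and that of GRMZM2G366532 to hsp70-4 shifts most, from 0.00376–0.00820 to 13.0–16.9.

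Summed over the 8 genes, the chaperones took 0.0927%, 0.104% and 0.0966% of the counts in CF1 and 1.13%, 1.12% and 1.21% in F1. This is 0.0979% ± 0.00599 against 1.15% ± 0.0512 (SD, n = 3), an 11.8-fold larger share. The ratio was 8.65 when the 100 genes of highest count were left out of the total only. GRMZM2G366532, itself among these 100, stayed in the sum of the 8, so this value does not compare true shares. For the summed FPKM after TMM scaling the ratio was 6.20. GRMZM2G366532 supplied most of the share in F1. The other 7 genes took 0.0976% ± 0.00606 in CF1 and 0.444% ± 0.0570 in F1, or 4.55 times as much. The summed FPKM of the 8 was 367 ± 22.2 in CF1 and 3966 ± 184.5 in F1. No test is given for these sums, because the genes were chosen with results of these data known.

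The 3 genes that were not called made up 95.6% ± 0.563 of the summed FPKM in CF1 and 11.8% ± 0.460 in F1. Their own sum was 333, 376 and 345 FPKM in CF1 and 461, 432 and 508 FPKM in F1. That of the 5 called genes was 14.95, 15.2 and 18.1 FPKM in CF1 and 3418, 3409 and 3670 FPKM in F1. In F1, GRMZM2G366532 made up 60.3% ± 3.25 of the sum, hsp82 12.8% ± 1.97, hsp101 6.73% ± 0.455 and GRMZM2G069651 5.40% ± 0.363. Hsp70 added 3.03% ± 0.964. The split into called and not called genes follows the test itself, so these shares describe it and do not support it.

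**Figure D4:**
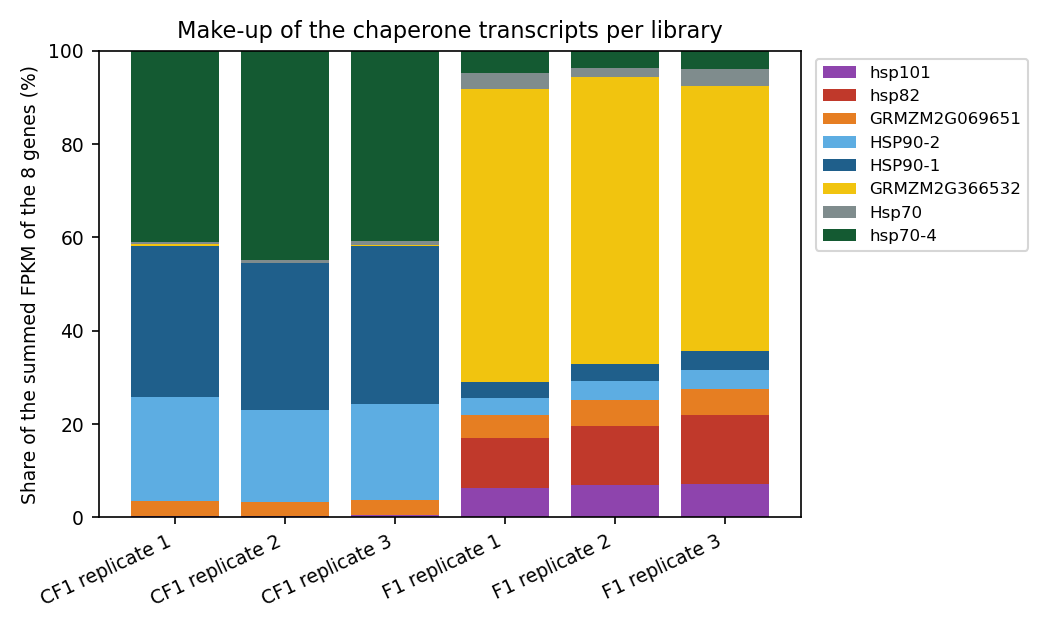
Share of the summed FPKM of the 8 genes (y axis, %) taken by each gene in each of the 6 libraries. Greens and blues (hsp70-4, HSP90-1 and HSP90-2) fill 95.0–96.1% of the CF1 bars, and GRMZM2G366532 in yellow fills 56.6–62.7% of the F1 bars.

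For each gene, the expressed genes with the most similar profile were taken by the root mean square difference of centred log2(TMM-scaled CPM + 1) over the 6 libraries, a scale on which the pseudocount of 1 compresses genes that were near 0 in CF1. Nearest to GRMZM2G366532 was hsp26 (difference 0.103), a small heat shock protein gene of the plastid, with 1.58 FPKM in CF1 and 4886 in F1. For hsp82 the nearest were hsp18f (0.268), a small heat shock protein gene, GRMZM2G437100 (0.321) and the dehydrin gene dhn1 (0.509), known for its response to drought and abscisic acid. For hsp101 they were GRMZM2G150688 (0.181), hsp18c (0.205), another small heat shock protein gene, and GRMZM2G306679 (0.215). Their log2 fold changes were 13.52, 10.19 and 10.71, against 6.96 for hsp101, so they were near only on this compressed scale. Hsp70 was nearest to rf2c (0.242), named after its likeness to the fertility restorer rf2 and encoding an aldehyde dehydrogenase, followed by GRMZM2G046382 (0.286) and GRMZM2G070863 (0.330).

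No gene of the 8 was among the 3 nearest of another. The closest approach by rank was hsp82, the 6th nearest gene to GRMZM2G366532 (difference 0.682). By size of the difference it was HSP90-1 and hsp70-4 (0.224), yet HSP90-1 ranked 1861 among the genes nearest to hsp70-4. GRMZM2G069651 was nearest to GRMZM2G068476 (0.066), GRMZM2G141931 (0.078) and GRMZM2G330019 (0.104). Of these, GRMZM2G068476 had only 0.02 FPKM in CF1, and its log2 fold change was 7.09, against 3.45 for GRMZM2G069651. The smallest differences belonged to the genes that were not called: 0.023 for HSP90-2 and GRMZM2G369931, 0.029 for hsp70-4 and GRMZM2G020859, and 0.035 for HSP90-1 and GRMZM5G864335.

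Other genes of the same folding network were taken from lists matched by RefSeq symbol. The lists were chosen with earlier results of these data known, so their counts are a description and not independent support. They comprised 9 genes that are not among the 8, of which 8 rose and none fell, beside 24.1% of all genes tested that rose and 19.9% that fell. One of them, Fes1B, passed the filter on low values only through F1, so the filter itself required a higher mean FPKM there. The other 8 were expressed in both groups, and 7 of them rose. Their median log2 fold change was 3.41, with a range of 0.57 to 5.21, beside a median of 0.05 over all genes tested.

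In the HSP70 family, bip1 and bip2 encode the luminal binding proteins, the HSP70s of the endoplasmic reticulum. The level of bip1 was 9.97, 7.85 and 9.53 FPKM in CF1 and 360, 311 and 406 in F1, which is 4.50 on the log2 scale (standard error 0.17) with an adjusted p of 2.889e-08 in edgeR's quasi-likelihood test. For bip2 it was 4.56, 5.26 and 3.94 in CF1 and 68.9, 69.7 and 75.8 in F1, which is 3.16 on the log2 scale (standard error 0.13). The groups were far apart for both. Another family gene, hsp70-5 (GRMZM5G802801), had 10.7 ± 1.55 FPKM in CF1 and 154 ± 21.9 in F1, which is 3.06 on the log2 scale (standard error 0.15). With Hsp70, 4 of the 5 HSP70 family genes found by name rose, beside 24.1% of all genes tested. This list, too, was chosen with earlier results of these data known. The exception was hsp70-4, which was the most abundant of the 5 in CF1 by more than 10 times.

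Fes1B, whose family exchanges the nucleotide of HSP70, had 1, 9 and 0 counts in CF1 and 819, 745 and 749 in F1. Its fitted estimate of 6.89 on the log2 scale (standard error 0.40) became 9.44 without CF1 replicate 2, which held 9 of its CF1 counts. SGT1, a co-chaperone of HSP90 that also acts in plant immunity, had 13.7, 12.8 and 15.1 FPKM in CF1 and 36.3, 34.1 and 36.9 in F1. Its F1 libraries were all higher, and the fit gave 0.57 on the log2 scale (standard error 0.11) with an adjusted p of 0.00121, below the fold change of 2. No gene named as a J-protein, the partners that load clients on HSP70, was found by symbol.

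All 4 chaperonin genes found by name, each expressed in both groups, rose, beside 24.1% of all genes tested. Their median log2 fold change was 4.41, in a list chosen with earlier results of these data known. Chaperonins enclose single protein chains in a barrel, and CPN60 is the barrel subunit of mitochondria and plastids. The mitochondrial CPN60II had 4.98 ± 0.432 FPKM in CF1 and 109 ± 15.2 in F1 (log2 fold change 3.65, standard error 0.15). Both gene IDs that carry the name CPN60I rose, GRMZM2G111477 with a log2 fold change of 5.16 and GRMZM2G458208 with 5.21 (standard error 0.17 for each), and since they share a name their reads may not be separable. CHL-CPN10, the lid subunit of the chloroplast, had 6.71 ± 1.10 FPKM in CF1 and 48.6 ± 5.36 in F1 (log2 fold change 2.06, standard error 0.15). Each of these had an adjusted p of 1.339e-06 or lower in edgeR's quasi-likelihood test.

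Small heat shock proteins hold unfolded proteins for HSP70 and HSP101 to act on. All 6 found by name were called up-regulated, beside 24.1% of all genes tested, in a list chosen with earlier results of these data known. Of the 6, 4 were expressed in both groups, with log2 fold changes between 6.55 for GRMZM2G158232 and 10.80 for hsp26. The others, hsp18c and hsp18a, passed the filter only through F1, so the filter itself required a higher mean FPKM there. In CF1, hsp18c had 0, 0 and 2 counts, against 1498, 1828 and 1702 in F1. For hsp18a the counts were 2, 1 and 8 in CF1 and 512, 668 and 599 in F1, and its log2 fold change of 6.37 became 7.69 without CF1 replicate 3.

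**Figure D5:**
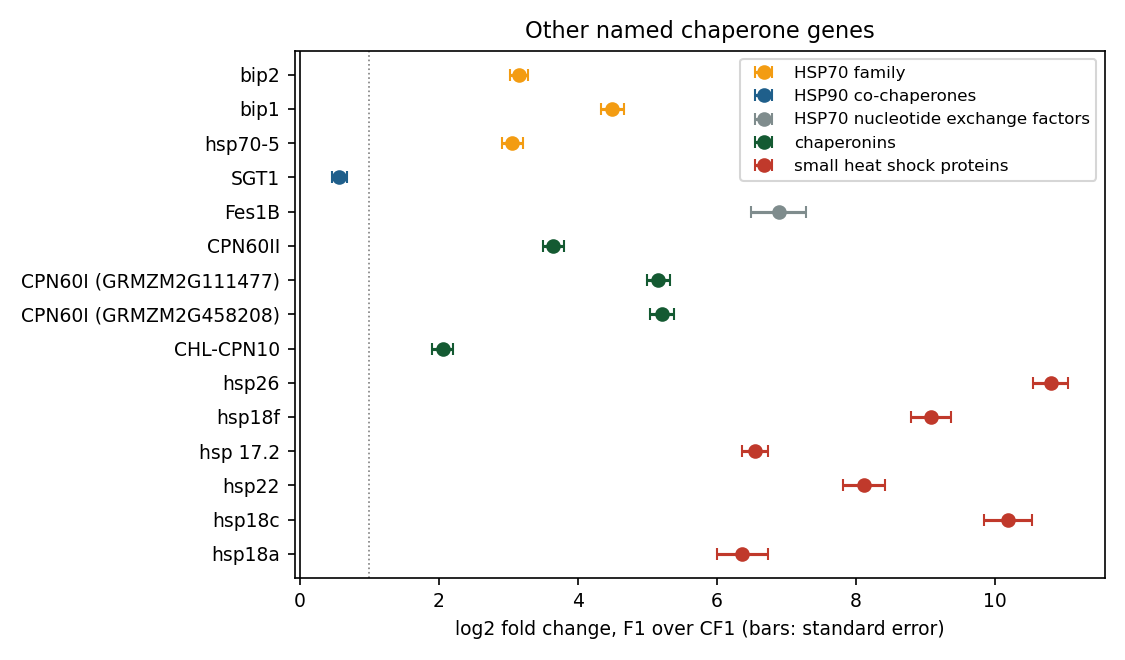
Log2 fold change of F1 over CF1 with standard errors for the other named chaperone genes, coloured by list, with a dotted line at a fold change of 2. SGT1 at 0.57 is the only one left of the line, the chaperonins and the other HSP70 family genes lie between 2.06 and 5.21, and the small heat shock proteins between 6.37 and 10.80; Fes1B, hsp18c and hsp18a passed the filter only through F1.

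Members of the HSP70 and HSP90 families are similar in sequence, and how reads shared by near-identical copies were assigned was not examined here, so the division of counts between family members is uncertain.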

How the data were processed

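RNA-seq libraries of CF1 and F1 (3 biological replicates each) were analysed. Per the submitters' processing notes, HISAT2 2.0.1, HTSeq 0.6.1 and DESeq 1.10.1 were used with B73 RefGen_v3. The strand setting of the counting is not given in the sources used here. The authors deposited raw counts per gene and FPKM, which are counts divided by exonic length and library total. Recomputed FPKM matched the deposited values within 0.01 for 100%. The other 24 per-sample columns (12 of counts, 12 of FPKM) have names that match no sample label and were not used.

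Genes whose mean reached 1 FPKM in either group were tested with edgeR 4.0.16 (R 4.3.3; quasi-likelihood test, TMM, Benjamini-Hochberg adjustment), following the fold change and FDR thresholds of the study. The standard error is the absolute log2 fold change divided by the square root of F. Named genes are the 8 members, in each chaperone list the 2 highest and 2 lowest log2 fold changes and the highest F1 level, and the 3 nearest profiles per member; the leaf markers were a list of their own, and bip2 and the flanking genes were named after their values were seen. The members and lists were chosen with earlier results of these data known. Names came from RefSeq symbols of another assembly (18908 IDs matched), so its coordinates were not used, its gene order served only to find flanking genes, and lists hold symbol matches only. Promoter motifs and proteins were not analysed here. The model was tested on counts simulated without a shift in composition between the groups. It recovered 189 of 200 changed genes, with 10 false calls. The choice of scaling was not tested by this simulation. Replicates differed by more than sampling noise (mean chi-square per gene 9.57–25.8). DESeq2 1.42.0, other scalings and filters, a replicate block and left-out libraries were alternatives.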

Additional observations from a re-analysis of the deposited data

How the results depend on the processing

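The 5 calls among the 8 large chaperones held under all 12 alternatives, and so did the absence of calls for the other 3 except when libraries were scaled by their totals alone. With those totals, 9286 genes were up-regulated and 1899 down-regulated, against 4963 and 4102, and the median log2 fold change of all genes moved from 0.05 to 0.85. There HSP90-2 became called at 1.03, HSP90-1 went from -0.49 to 0.31 and hsp70-4 from -0.73 to 0.07, and SGT1 became called at 1.37. The difference between F1 and CF1 in the share of counts on the 8 genes was 1.054 percentage points. It was 1.202 with the 100 genes with the most counts left out of the total, although GRMZM2G366532, which is among them, stayed in the sum. It was 0.3465 without GRMZM2G366532 among the genes summed, an alternative chosen after seeing the data. Leaving out each library in turn gave 1.024 to 1.071. With a replicate block, 8948 genes were called against 9065, and 5 of the 8 chaperones rose as before. Over all genes, deviations of same-numbered libraries correlated by 0.0507, -0.0163 and 0.0293. These values show no pairing by replicate number, but with 3 libraries per group they cannot exclude it for single genes. Replicate 3 was the highest for 7 of the 8 chaperones in CF1 and for 6 in F1, without a share over all expressed genes to set beside it. DESeq2 called 8990 genes. With 7 to 21 counts per CF1 library, hsp82 is limited by depth, and its log2 fold change ranged from 9.39 to 10.54 over all alternatives.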

Other observations

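The neighbours of the 8 genes were looked up in the RefSeq gene order (Zm-B73-REFERENCE-NAM-5.0). Of the 16 flanking genes, 10 have an ID in the deposited table and 7 were expressed, of which 2 rose and 2 fell, beside 24.1% and 19.9% of all expressed genes, so these counts are no result about the neighbours. None of the flanking genes is itself one of the 8. Beside hsp101, GRMZM2G060726 rose with a log2 fold change of 2.85, and beside GRMZM2G069651, GRMZM5G802566 rose with 4.66. The neighbours of GRMZM2G366532 were GRMZM2G165357, with a log2 fold change of -1.01, and GRMZM2G063875, with one of -2.47.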
